A study of Mus musculus with 2 samples.

Results

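The guanylate-binding proteins (GBP) and immunity-related GTPases (IRG) of the mouse are described here through 10 genes, Gbp2, Gbp3, Gbp4, Gbp5, Gbp6, Gbp7, Iigp1, Igtp, Irgm1 and Ifi47, of 18920 genes in the deposited tables. They were chosen by name, and all 10 had a row in both libraries. The libraries are single-cell RNA libraries of dissected aortic root with ascending aorta, taken at 16 weeks of age from mice of the genotype Fbn1C1041G/+, a mouse model of Marfan syndrome in which 1 copy of the fibrillin-1 gene carries a cysteine substitution. One library came from mice given GLPG0187, an inhibitor of alpha-v integrins, daily from 6 weeks to 16 weeks of age, and the other from mice given vehicle. Both groups carry the Fbn1 mutation, and a wild-type aorta is not analysed here. Each group is 1 pool of male and female animals in equal numbers, how many animals went into a pool is a detail the sources used here do not give, and the cells were freed by enzymatic digestion and sorted only to leave out debris.

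GBPs and IRGs are large and small GTPases of cell-autonomous immunity, made at low levels in resting cells and strongly induced by interferon-gamma. Interferon-gamma acts through the receptor chains IFNGR1 and IFNGR2 and the kinases JAK1 and JAK2 on gamma-activated sequences in DNA, and it induces IRF1, a factor that binds interferon-stimulated response elements. The GTPases then gather on the vacuoles of intracellular microbes and break them open, and several of them are also induced by type I interferons.

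The 10 genes lie on 4 chromosomes. On GRCm38, Gbp5, Gbp7, Gbp3 and Gbp2 lie in that order within chr3:142493978-142638008, all on the plus strand. Gbp4 (chr5:105115767-105139586) and Gbp6 (chr5:105270702-105293698) are on the minus strand of chromosome 5. Irgm1 (chr11:48861968-48871683, minus strand), Ifi47 (chr11:49076587-49096974, plus strand) and Igtp (chr11:58199556-58207591, plus strand) are on chromosome 11. Iigp1 lies on a further chromosome. Gbp4 overlaps Gbp8 and Gbp9 on the same strand, and Igtp overlaps Irgm2 over 7974 bases, so reads of these genes could be divided between neighbours and their values are uncertain to that extent.

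Since the 10 genes were described together, the DNA just upstream of their starts was searched for the interferon elements. RefSeq (GRCm38.p6) gave a promoter window of 300 bases, from 250 bases before to 50 bases after the start, that was searched for 7 of the 10 genes, with 8 windows in all because Gbp3 had a pair of annotated starts. The core of the interferon-stimulated response element, searched on both strands as GAAA, any 2 bases and GAAA again (TTTC, any 2 bases and TTTC on the other strand), was present in 6 of the 8 windows, which belong to 6 of the 7 genes, and in 3.44% of 32851 promoters of that length. The letters TTCNNNGAA, the gamma-activated sequence, which reads the same on both strands, were present in 3 of the 7, Gbp5, Gbp7 and Igtp, and in 8.3% of all promoters. The 110 bases before the start of Gbp2 (chr3:142620553-142620662, plus strand), Gbp3 (chr3:142559934-142560043, plus strand), Gbp7 (chr3:142530226-142530335, plus strand), Igtp (chr11:58199446-58199555, plus strand), Irgm1 (chr11:48871421-48871530, minus strand) and Ifi47 (chr11:49076477-49076586, plus strand) are shown 5′ to 3′ in the gene's own direction, with matches to either motif in capitals, because they set genes with a match beside the 1 gene without. The other Gbp3 window (chr3:142560106-142560405, plus strand) held no response-element match. A pair of matches that overlap appears as 1 longer run of capitals in Gbp3 and in Irgm1.
Gbp2: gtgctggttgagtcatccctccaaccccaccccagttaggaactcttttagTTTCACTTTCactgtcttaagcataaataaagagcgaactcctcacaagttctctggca
Gbp3: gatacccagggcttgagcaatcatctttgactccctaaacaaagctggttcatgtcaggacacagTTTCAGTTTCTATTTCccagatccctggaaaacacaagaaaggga
Gbp7: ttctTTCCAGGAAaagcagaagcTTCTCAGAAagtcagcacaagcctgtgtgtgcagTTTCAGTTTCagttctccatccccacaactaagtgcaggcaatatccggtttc
Igtp: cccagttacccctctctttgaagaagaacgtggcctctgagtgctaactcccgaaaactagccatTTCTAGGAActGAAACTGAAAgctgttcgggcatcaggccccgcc
Irgm1: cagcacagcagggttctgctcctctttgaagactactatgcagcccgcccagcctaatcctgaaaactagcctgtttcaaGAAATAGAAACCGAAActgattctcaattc
Ifi47: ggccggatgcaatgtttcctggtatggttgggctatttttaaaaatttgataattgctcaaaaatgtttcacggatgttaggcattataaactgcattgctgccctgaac

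The response-element match began 59 bases before the start in Gbp2, 53 before it in Gbp7, 34 before it in Igtp and 165 before it in Gbp5. In Gbp3 the matches began 45 and 39 bases before the start, and in Irgm1 30 and 24 bases before it. A match describes letters in a window and is not a mapped binding site, and the lack of a match in Ifi47 says only that these letters are not in the window searched.

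**Figure D1:**
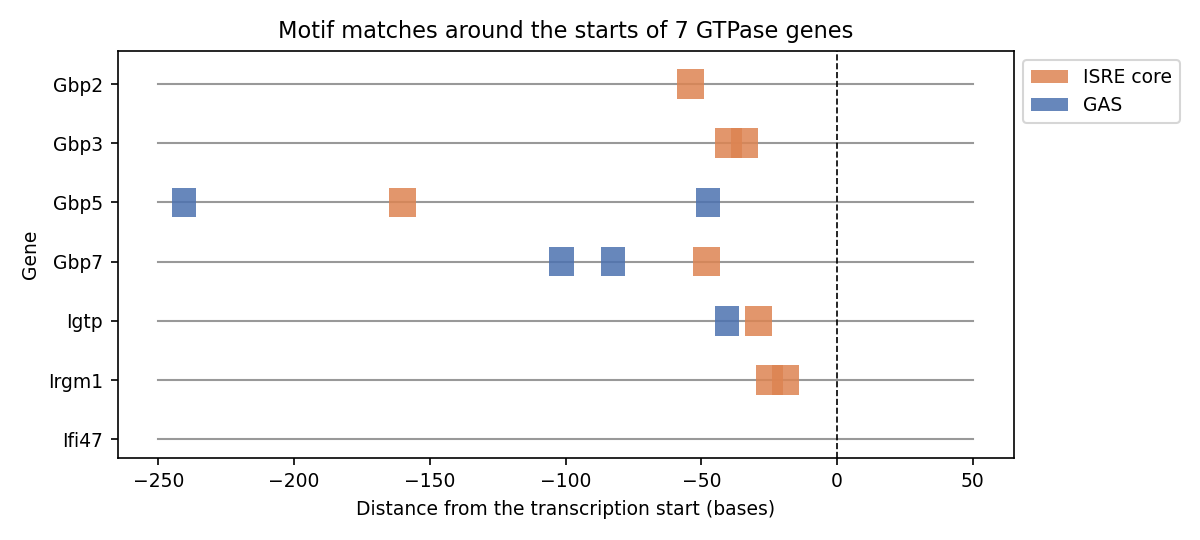
Positions of the interferon-stimulated response element core (ISRE, orange) and the gamma-activated sequence (GAS, blue) in the promoter windows, with distance from the RefSeq start in bases on the horizontal axis and 1 line per gene. ISRE matches lie upstream of the start in 6 of 7 genes, and the Ifi47 line carries no match. The Gbp3 line is the window printed in the text.

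Cells were grouped by clustering, and clusters were named from marker genes. After doublet removal 4349 GLPG0187 cells and 2945 vehicle cells were left, with medians of 3766 and 3786 genes per cell. The named classes were smooth muscle (SMC)-like (1391 GLPG0187 and 580 vehicle cells), fibroblast-like (1053 and 874), macrophage-like (342 and 181) and endothelial-like (161 and 104). The other clusters of this size stayed unnamed and are given by their leading genes: cluster 1 with Prss35, Cyp2e1, Npy and Tbx20 (906 and 712), cluster 5 with Nrgn, Timp4 and Tnnt2 (272 and 243), and cluster 6 with Chil1, Spp1, Chad and Comp (183 and 201). The libraries share 5 cell barcode sequences. With 1 library per group there is no replicate and no test, so treatment, animals, dissection and library preparation cannot be told apart in any difference below. Values are the deposited whole numbers, already corrected for depth, so they are not molecule counts.

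The GTPase genes were higher in the GLPG0187 library in endothelial-like, macrophage-like and fibroblast-like cells and nearly level in SMC-like cells. The SMC-like class leaves out cluster 5, which also expressed smooth-muscle markers and where the measured genes were higher. A difference is given as the log2 ratio of GLPG0187 over vehicle, from each gene's summed value divided by the class total, with 1 added to both sums. A gene counted as measured where its sum over both libraries reached 100, and as higher or lower where the ratio reached 1.5-fold. Some genes reached this minimum mostly through GLPG0187, which limits what their counts as higher can show. Among them were Gbp3 in SMC-like cells (sums of 86 in GLPG0187 and 18 in vehicle) and Gbp4 in fibroblast-like cells (83 and 17). Others were Gbp6 in fibroblast-like cells (96 and 24), and Gbp4 (135 and 12) and Iigp1 (813 and 22) in macrophage-like cells. In endothelial-like cells they were Ifi47 (140 and 11), Gbp3 (266 and 26), Gbp5 (174 and 31), Igtp (362 and 27) and Irgm1 (216 and 39). Most of the endothelial-like count therefore comes from such genes. In fibroblast-like cells all 10 genes were measured and all 10 were higher, where 2.54% of all 10226 genes measured in that class were higher and 1.17% lower. In macrophage-like cells 9 of 10 were measured and all 9 were higher, against 6.35% of all genes higher and 3.14% lower. In endothelial-like cells 9 of 10 were measured and all 9 were higher, against 5.18% of all genes higher and 3.67% lower. Gbp6 was the gene not measured in the last 2 classes. In SMC-like cells 6 were measured and 1, Gbp3, was higher, against 0.537% of all genes higher and 1.5% lower, and none of the 10 was lower in any of these 4 classes. Over all 10 genes, with those below the minimum included, the median log2 ratio was 2.65 in endothelial-like, 1.97 in macrophage-like, 1.58 in fibroblast-like and 0.18 in SMC-like cells, while the median over all measured genes lay between -0.04 and -0.01 in the 4 classes. Over all cells together the 10 genes were measured and higher, with a median of 1.28, against 3.29% of 13271 genes. With clusters made without these genes and other interferon genes the median over measured genes was 2.64 in endothelial-like, 2.03 in macrophage-like, 1.44 in fibroblast-like and 0.25 in SMC-like cells. With the clusters as reported, the median over measured genes was 2.64, 1.98, 1.58 and 0.08 in the same order.

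**Figure D2:**
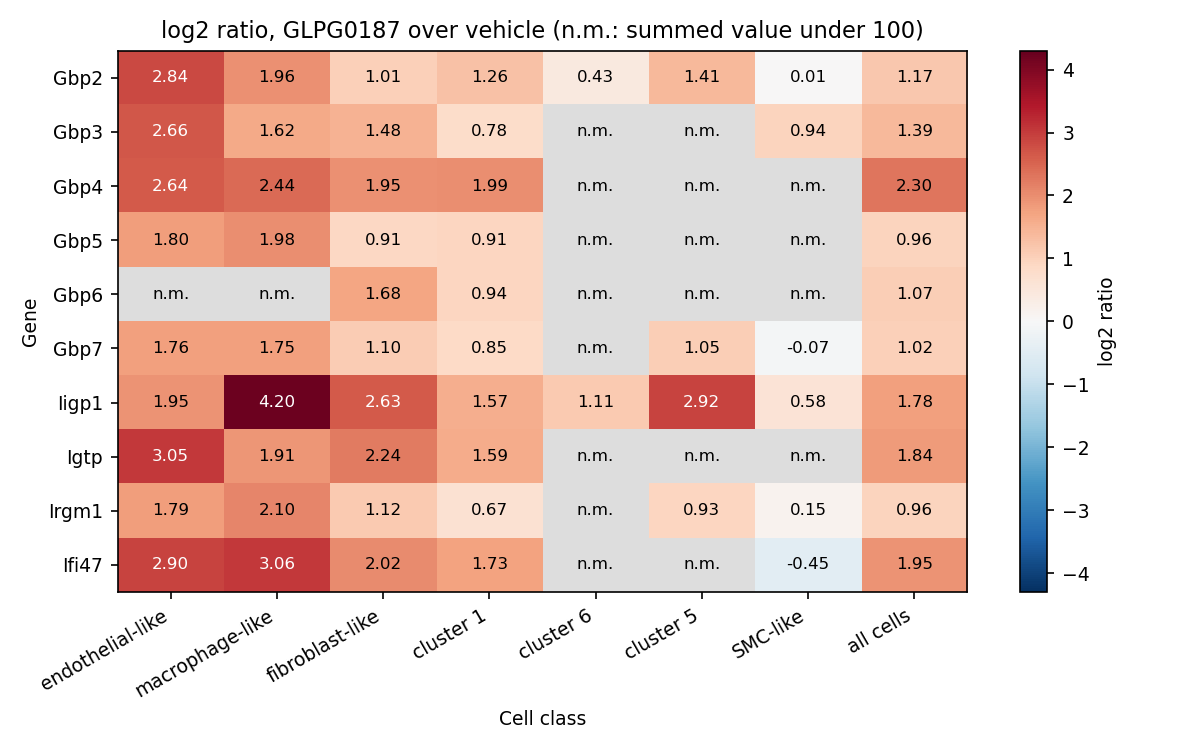
Heat map of the log2 ratio of GLPG0187 over vehicle, with 1 row per gene and 1 column per cell class, cluster or all cells; red is higher in GLPG0187, blue lower, and grey (n.m.) marks a summed value under 100. The endothelial-like, macrophage-like and fibroblast-like columns are red in every measured cell, while the SMC-like column runs from -0.45 for Ifi47 to 0.94 for Gbp3.

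Among the GBPs, Gbp2, a prenylated member that is recruited to microbial vacuoles and membranes, had a mean of 4.80 per endothelial-like cell of the GLPG0187 library, against 0.654 in the vehicle library, a log2 ratio of 2.84. Its mean was 2.54 in GLPG0187 and 0.635 in vehicle macrophage-like cells, and 0.996 in GLPG0187 and 0.493 in vehicle fibroblast-like cells, with log2 ratios of 1.96 and 1.01. It was above 0 in 59.1% of GLPG0187 macrophage-like cells (exact 95% binomial interval 53.6 to 64.3) and in 16.6% of vehicle ones (11.5 to 22.8). These intervals, here and below, cover counting error among cells of 1 library only. In SMC-like cells Gbp2 was at 0.230 in GLPG0187 and 0.229 in vehicle, and it was above 0 in 18.2% (16.2 to 20.3) and 20.7% (17.5 to 24.2) of cells, so Gbp2 separated the libraries in 3 classes and not in SMC-like cells.

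Gbp7 was likewise near level in SMC-like cells, at 0.112 in GLPG0187 and 0.117 in vehicle, and was at 4.84 in GLPG0187 and 1.40 in vehicle endothelial-like cells, a log2 ratio of 1.76. Its ratio was 1.75 in macrophage-like and 1.10 in fibroblast-like cells. Gbp3 was at 1.65 in GLPG0187 and 0.250 in vehicle endothelial-like cells, and at 1.34 in GLPG0187 and 0.425 in vehicle macrophage-like cells. Gbp3 was the gene that passed 1.5-fold in SMC-like cells, at low levels of 0.0618 in GLPG0187 and 0.0310 in vehicle.

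Gbp5, which in macrophages promotes assembly of the NLRP3 inflammasome, had means of 0.798 in GLPG0187 and 0.193 in vehicle macrophage-like cells, a log2 ratio of 1.98. In endothelial-like cells it was at 1.08 in GLPG0187 and 0.298 in vehicle, and in fibroblast-like cells at 0.162 in GLPG0187 and 0.0858 in vehicle. Gbp4 was at 2.90 in GLPG0187 and 0.452 in vehicle endothelial-like cells at 0.395 in GLPG0187 and 0.0663 in vehicle macrophage-like cells, and at 0.0788 in GLPG0187 and 0.0195 in vehicle fibroblast-like cells. The vehicle fibroblast-like sum of 17 rested on 2 cells, of which 1 held 16. With values capped at the 99th percentile the fibroblast-like log2 ratio of Gbp4 was 3.27, against 1.95 without a cap. In vehicle SMC-like cells Gbp4 was listed at 0. Gbp6 was at 0.429 in GLPG0187 and 0.0577 in vehicle endothelial-like cells, below the minimum for a ratio, and at 0.0912 in GLPG0187 and 0.0275 in vehicle fibroblast-like cells, with a log2 ratio of 1.68 there.

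Among the IRGs, the effectors that load onto vacuoles are Iigp1 (Irga6) and Ifi47 (Irgd), and the regulators that hold effectors inactive on the cell's own membranes are Irgm1 and Igtp (Irgm3). Iigp1 had a mean of 6.99 in GLPG0187 and 1.78 in vehicle endothelial-like cells, 2.38 in GLPG0187 and 0.122 in vehicle macrophage-like cells, and 2.01 in GLPG0187 and 0.323 in vehicle fibroblast-like cells. The log2 ratios were 1.95, 4.20 and 2.63, so its largest ratio stood in macrophage-like cells, where the vehicle level was lowest of the 3. It was above 0 in 31.6% of GLPG0187 fibroblast-like cells (28.8 to 34.5) and in 11.4% of vehicle ones (9.41 to 13.7). In SMC-like cells Iigp1 was at 0.112 in GLPG0187 and 0.0741 in vehicle, a log2 ratio of 0.58 that lies just under 1.5-fold. When cells were clustered without these genes and other interferon genes, the SMC-like ratio of Iigp1 was 1.20, past 1.5-fold.

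Ifi47 was the 1 member with its highest GLPG0187 level in macrophage-like cells, at 1.96, against 0.227 in vehicle macrophage-like cells, a log2 ratio of 3.06. In endothelial-like cells it was at 0.870 in GLPG0187 and 0.106 in vehicle. In SMC-like cells it was at 0.0697 in GLPG0187 and 0.0948 in vehicle, a log2 ratio of -0.45. Among the 6 genes measured in SMC-like cells Ifi47 thus had the lowest ratio, short of 1.5-fold, while its ratio was above 2 in the other 3 classes.

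The regulators differed in size. Igtp was at 2.25 in GLPG0187 and 0.260 in vehicle endothelial-like cells, a log2 ratio of 3.05, and its ratio was 1.91 in macrophage-like and 2.24 in fibroblast-like cells. Irgm1 had smaller ratios in 2 of these classes, 1.79 in endothelial-like and 1.12 in fibroblast-like cells, and 2.10 in macrophage-like cells. In SMC-like cells Irgm1 was at 0.154 in GLPG0187 and 0.138 in vehicle, a log2 ratio of 0.15, and Igtp was below the minimum.

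**Figure D3:**
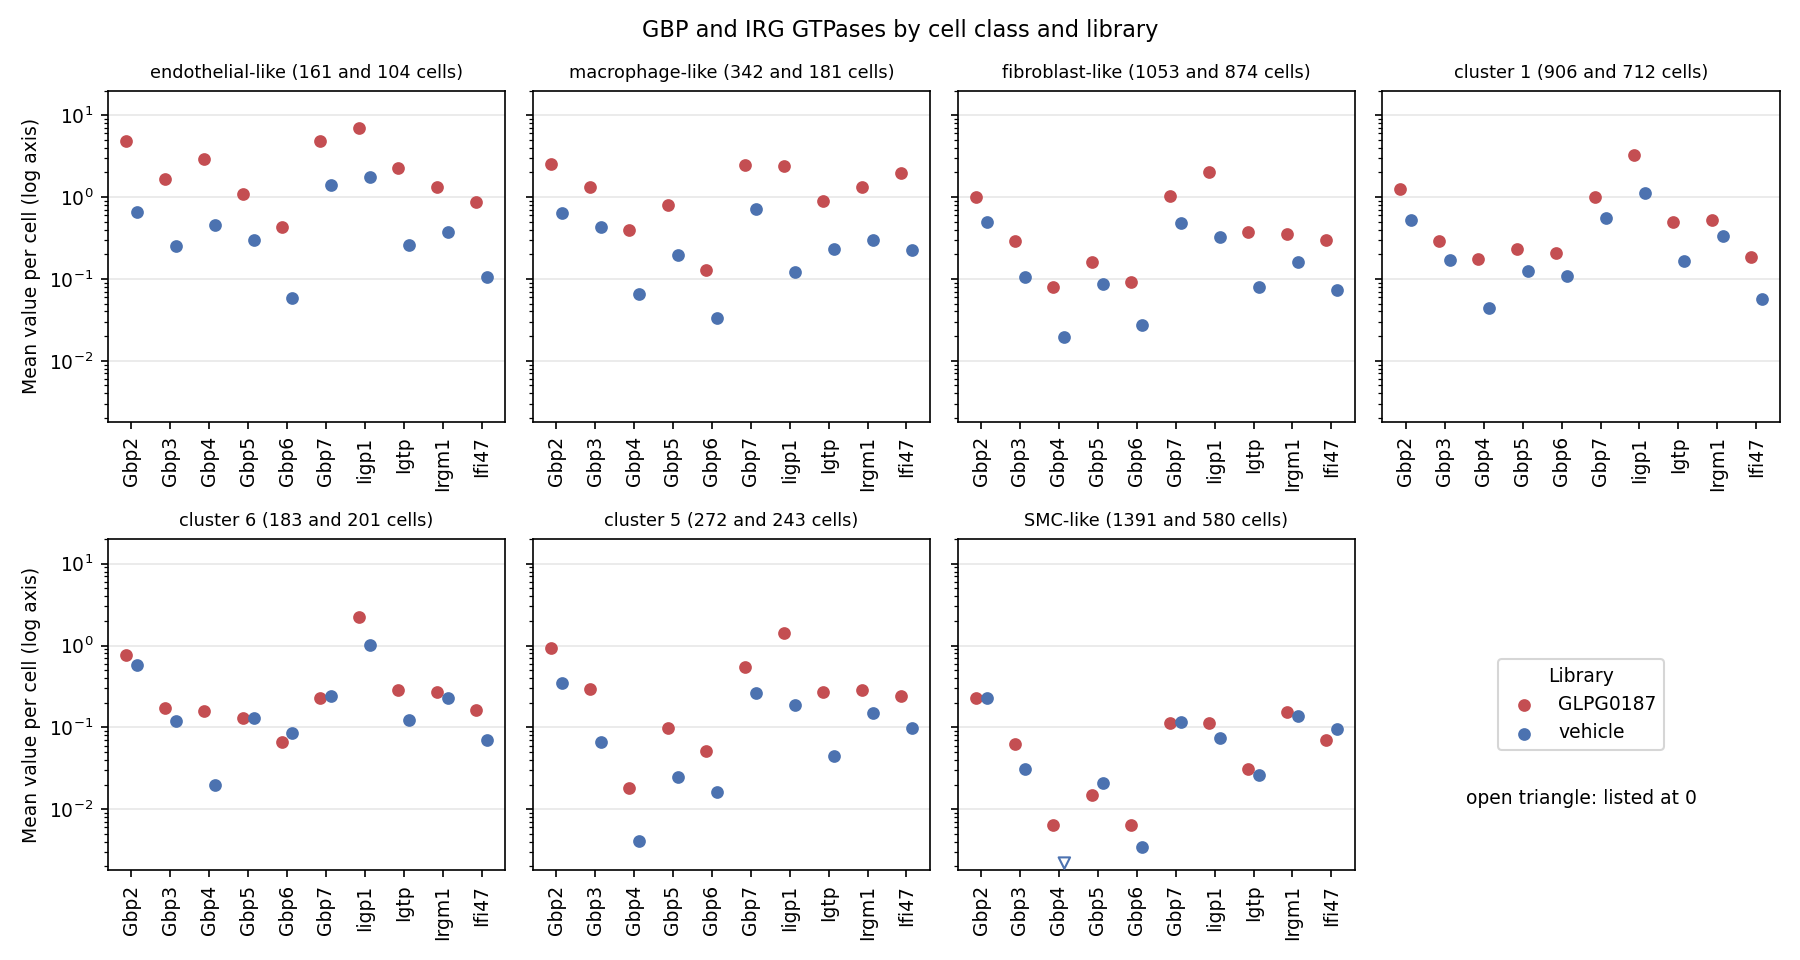
Mean deposited value per cell of each gene (vertical log axis) in 7 classes or clusters, with GLPG0187 in red beside vehicle in blue and an open triangle for a gene listed at 0. Endothelial-like cells hold the highest GLPG0187 level for 9 of 10 genes and SMC-like cells the lowest for all 10.

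Among the 7 classes and clusters compared, endothelial-like cells had the highest level of 9 of 10 genes in the GLPG0187 library and of 7 of 10 in the vehicle library. The exceptions were Ifi47, highest in macrophage-like cells of both libraries, and in vehicle also Gbp3, highest in macrophage-like cells, and Gbp6, highest in cluster 1. SMC-like cells had the lowest level of 10 of 10 genes in GLPG0187 and of 9 of 10 in vehicle, where Ifi47 was lowest in cluster 1. Neighbours in this order can be close: vehicle Gbp2 was at 0.654 in endothelial-like, 0.635 in macrophage-like and 0.572 in cluster 6 cells. At least 2 lymphatic endothelial markers were above 0 in 57.1% of GLPG0187 and 53.8% of vehicle endothelial-like cells. At resolution 1.0 a lymphatic endothelial-like cluster led by Ccl21a, Nts and Mmrn1 (85 GLPG0187 and 53 vehicle cells) stood apart. As reported, the endothelial-like class joins a cluster led by Nts, Mmrn1, Cldn5 and Flt4 (138 GLPG0187 and 80 vehicle cells) and one led by Gpihbp1 and Fabp4 (23 and 24). Iigp1 was at 5.42 in GLPG0187 and 1.04 in vehicle in the first, and at 16.4 and 4.25 in the second. Its log2 ratios there were 2.36 and 1.89, so class levels also reflect the mix of these clusters. At resolution 1.0 macrophage-like cells formed a cluster led by Pf4, Ccl3 and Cxcl2 (229 GLPG0187 and 149 vehicle cells). Another was led by Ly6c2, Ms4a4c, Plac8 and Rsad2 (130 and 40). The libraries thus differ in the mix of macrophage-like cells, and its part in the macrophage-like ratios was not tested.

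The unnamed clusters differed in the same way to different degrees. In cluster 1 all 10 genes were measured and higher, where 1.57% of all genes were, with a median log2 ratio of 1.10. In cluster 5, 4 genes were measured and all 4 were higher, where 2.4% of all genes were. Iigp1 there was at 1.41 in GLPG0187 and 0.185 in vehicle, and Gbp2 at 0.926 in GLPG0187 and 0.350 in vehicle. Iigp1 reached the minimum mostly through GLPG0187 (sums of 384 in GLPG0187 and 45 in vehicle). In cluster 6, 2 genes were measured and 1 was higher, Iigp1 at 2.21 in GLPG0187 and 1.02 in vehicle, where 2.38% of all genes were higher, while Gbp2 stood at 0.770 and 0.572. A few cells carried much of these values: the 5% of cells with the highest sums of the 10 genes held 62.6% of the total in GLPG0187 and 30.5% in vehicle cluster 5, and 72.2% in GLPG0187 and 58.9% in vehicle cluster 6. The spread over all 10 genes in cluster 6 ran on both sides of 0, with a median of 0.49. Cluster 5 also expressed Myh11, the smooth-muscle myosin, at 21.6 in GLPG0187 and 13.1 in vehicle, against 56.5 and 51.3 in SMC-like cells. Its smooth-muscle list summed to 449 in GLPG0187 and 329 in vehicle. That list summed to 856 and 820 in SMC-like and to 35.0 and 31.4 in fibroblast-like cells. Over all 10 genes, with those below the minimum included, the cluster 5 median was 1.44. The nearly level ratios of SMC-like cells thus do not cover every cluster with smooth-muscle markers.

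The 2 fibroblast-like clusters, one led by Clec3b, Scara5 and Pi16 and the other by Il6, Adamts4 and Ptgs2, differed in level for most of the genes. Gbp2 was at 1.23 in GLPG0187 and 0.584 in vehicle in the first, and at 0.597 in GLPG0187 and 0.299 in vehicle in the second, so its log2 ratios of 1.06 and 1.01 were close while its levels were not. Gbp7 was at 1.22 in GLPG0187 and 0.487 in vehicle in the first, and at 0.700 in GLPG0187 and 0.457 in vehicle in the second, with log2 ratios of 1.31 and 0.63. The log2 ratio of Gbp3 was 1.76 in the first and 0.85 in the second. Iigp1 had close GLPG0187 levels, at 1.97 in GLPG0187 and 0.351 in vehicle in the first and at 2.08 in GLPG0187 and 0.263 in vehicle in the second.

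Several of the genes were found together in single cells. At least 3 of the 10 were above 0 in 78.3% of GLPG0187 endothelial-like cells (71.1 to 84.4) and 35.6% of vehicle ones (26.4 to 45.6). The shares were 70.5% in GLPG0187 (65.3 to 75.3) and 19.3% in vehicle (13.9 to 25.9) for macrophage-like cells, and 30.01% in GLPG0187 (27.3 to 32.9) and 9.04% in vehicle (7.22 to 11.1) for fibroblast-like cells. In SMC-like cells they were 3.81% in GLPG0187 (2.87 to 4.95) and 2.41% in vehicle (1.33 to 4.02), with overlapping intervals. Cells with at least 8 of the 10 numbered 31 in GLPG0187 and 1 in vehicle among endothelial-like cells, 44 in GLPG0187 and 1 in vehicle among macrophage-like cells, 24 in GLPG0187 and 3 in vehicle among fibroblast-like cells, and 0 in either library among SMC-like cells.

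**Figure D4:**
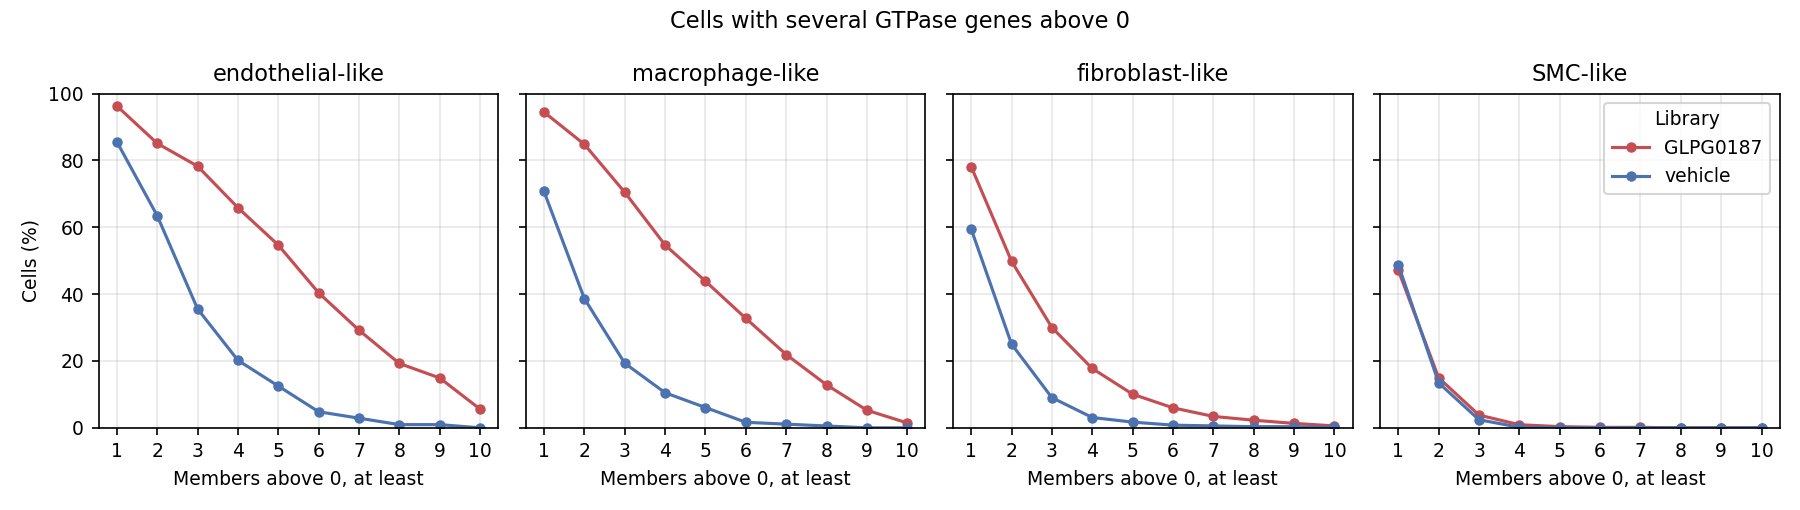
Share of cells, in percent, with at least the given number of the 10 genes above 0 (horizontal axis), for GLPG0187 in red and vehicle in blue in each named class. At 3 genes the share is 78.3% in GLPG0187 and 35.6% in vehicle endothelial-like cells, and 3.81% in GLPG0187 and 2.41% in vehicle SMC-like cells.

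The summed value of the 10 genes had a median per cell of 14 in GLPG0187 and 3 in vehicle endothelial-like cells, 7.5 in GLPG0187 and 1 in vehicle macrophage-like cells, 2 in GLPG0187 and 1 in vehicle fibroblast-like cells, and 0 in SMC-like cells of both libraries. Of the 4 named classes fibroblast-like cells were the most uneven: the 5% of cells with the highest sums held 44.9% of the class total in GLPG0187 and 42.1% in vehicle, and the 99th percentile was 90.2 in GLPG0187 and 10.5 in vehicle. A single vehicle fibroblast-like cell reached 191, of which Gbp2 gave 64 and Iigp1 gave 51. Leaving out the highest cell of each library left 9 of 9 measured genes higher in fibroblast-like cells, with a median of 1.59.

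The next counts, of shares and of levels among cells above 0, were not computed over all genes, so they have no background beside them. The share of cells above 0 was higher in GLPG0187 for 10 of 10 genes in endothelial-like, macrophage-like and fibroblast-like cells. The mean among cells above 0 was higher for 10 of 10 in endothelial-like cells and for 8 of 10 in each of the other two classes, where Gbp4 and Gbp6 were lower, among them fibroblast-like Gbp4 at 2.44 in GLPG0187 and 8.5 in the 2 vehicle cells above 0. In fibroblast-like cells the ratio of shares was larger than the ratio of levels among cells above 0 for 10 of 10 genes, with medians of 1.34 and 0.39 on the log2 scale. In macrophage-like cells this held for 9 of 10 genes, with medians of 1.90 and 0.68. In endothelial-like cells it held for 6 of 10, with medians of 1.11 and 1.17. Gbp2 in endothelial-like cells was above 0 in 60.2% of GLPG0187 and 30.8% of vehicle cells, and its mean in those cells was 7.96 in GLPG0187 and 2.12 in vehicle.

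In fibroblast-like and macrophage-like cells of both libraries, and in GLPG0187 endothelial-like cells, each of the other 9 genes was above 0 in a larger share of the cells with Iigp1 than of those without. This held for 8 of 9 genes in vehicle endothelial-like cells, where Irgm1 was the exception. It held for 8 of 9 in GLPG0187 and 6 of 9 in vehicle SMC-like cells. Vehicle cells with Iigp1 were few: 9 macrophage-like, 36 SMC-like and 39 endothelial-like cells. Gbp5, for example, was above 0 in 11.1% of those 9 macrophage-like cells and in 8.14% of the 172 without Iigp1. In the GLPG0187 library Igtp was above 0 in 32.7% of the 333 fibroblast-like cells with Iigp1 and in 10.0% of the 720 without, and in vehicle in 13% of 100 and 3.62% of 774. Across cells, the median Pearson r over pairs of the genes was 0.48 in GLPG0187 and 0.16 in vehicle endothelial-like cells, 0.37 in GLPG0187 and 0.15 in vehicle macrophage-like cells, 0.36 in GLPG0187 and 0.26 in vehicle fibroblast-like cells, and 0.06 in GLPG0187 and 0.00 in vehicle SMC-like cells. How often genes outside the 10 were found with Iigp1 was not computed, so the counts above have no background beside them. The cells of a library share its preparation and sparse values, so these counts and coefficients are descriptions only.

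Each pool held both sexes, and cells were split by whether they had Xist, from the inactive X chromosome, or Y-linked transcripts. In fibroblast-like cells the median ratio of measured genes was 2.09 among Xist-only cells (330 GLPG0187 and 308 vehicle cells, 7 genes measured) and 0.87 among Y-only cells (559 GLPG0187 and 458 vehicle cells, 8 measured, of which 7 were higher). Gbp2 was at 1.44 in GLPG0187 and 0.373 in vehicle Xist-only fibroblast-like cells, and at 0.782 in GLPG0187 and 0.563 in vehicle Y-only ones, with log2 ratios of 1.94 and 0.47. The Xist-only ratio was the larger for 7 of 7 genes measured in both. In endothelial-like cells it was larger for 6 of 6, on only 50 GLPG0187 and 26 vehicle Xist-only cells (82 and 56 Y-only), with a median of 3.44 in Xist-only cells against 1.70 in those with Y transcripts, and in macrophage-like cells for 1 of 3, on 45 GLPG0187 and 37 vehicle Xist-only cells (239 and 118 Y-only), with medians of 2.12 over 3 measured genes and 2.52 over 8. Over all cells 1139 GLPG0187 and 945 vehicle cells were Xist-only, and 2685 GLPG0187 and 1664 vehicle cells were Y-only. The number of animals of each sex in a pool is unknown, so sex cannot be told apart from single animals. The list for Xist-only cells included Gbp3 in endothelial-like and Iigp1 in macrophage-like cells, each listed at 0 in vehicle. Other Xist-only endothelial-like genes had low vehicle sums: Gbp2 (364 in GLPG0187 and 10 in vehicle), Gbp4 (215 and 6), Gbp5 (98 and 7) and Igtp (129 and 5). In Xist-only fibroblast-like cells Igtp had sums of 243 and 13. Such genes reached the minimum mostly through GLPG0187, which limits what the Xist-only counts and medians can show.

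**Figure D5:**
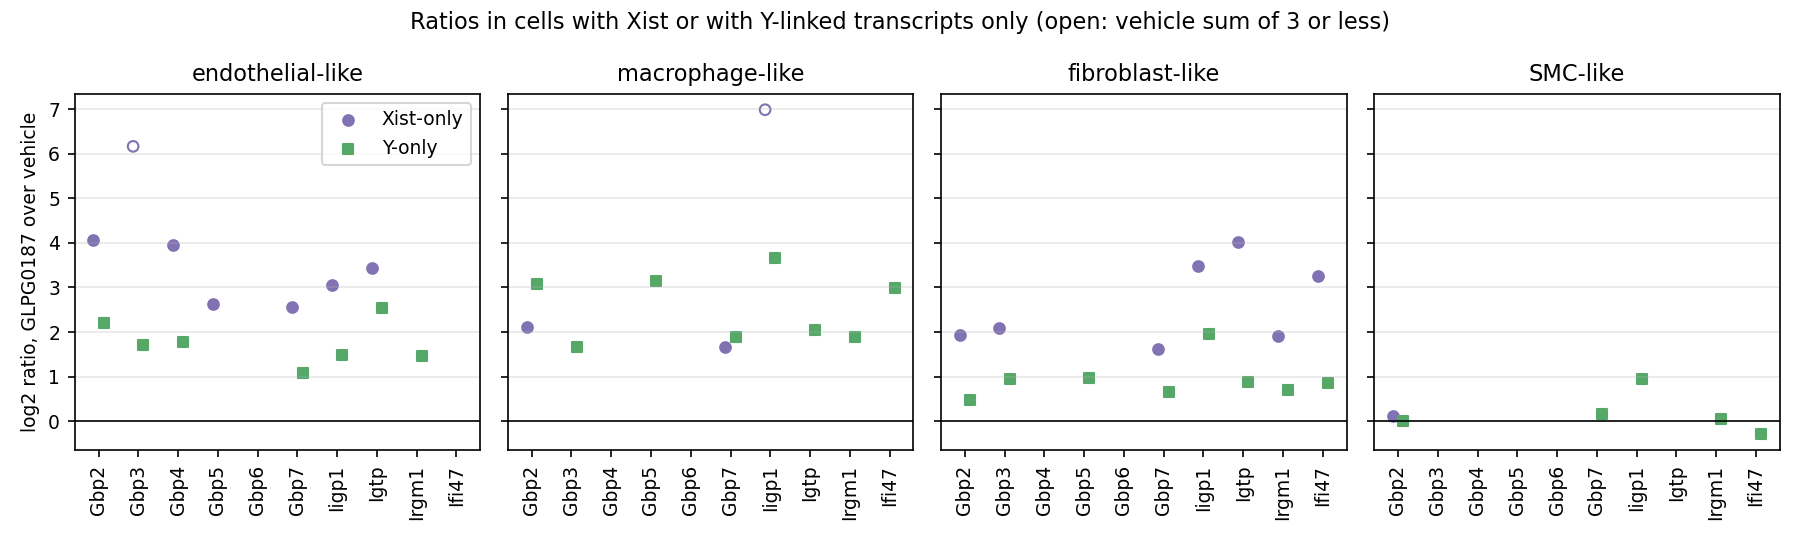
Log2 ratio of GLPG0187 over vehicle of each measured gene in Xist-only and Y-only cells. In fibroblast-like cells the Xist-only point is above the Y-only point for 7 of 7 genes measured in both, and open symbols mark ratios against a vehicle sum of 3 or less.

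Other members of the same families leaned the same way. Of 14 further GBP and IRG genes with a row, 5 were measured in endothelial-like cells and 5 were higher, 5 of 5 measured were higher in macrophage-like cells and 4 of 5 in fibroblast-like cells, while 1 was measured in SMC-like cells and was not. Irgm2, the further IRG regulator, was at 1.45 in GLPG0187 and 0.327 in vehicle endothelial-like cells and at 0.374 in GLPG0187 and 0.103 in vehicle fibroblast-like cells. Gbp9 was at 0.360 in GLPG0187 and 0.0442 in vehicle macrophage-like cells. Irgm2 overlaps Igtp and Gbp9 overlaps Gbp4 on the same strand, so their values may not be independent of those members. The gene that stayed short of 1.5-fold in fibroblast-like cells was 9930111J21Rik2, at 0.292 in GLPG0187 and 0.232 in vehicle. Of all measured genes 5.18% were higher in endothelial-like, 6.35% in macrophage-like, 2.54% in fibroblast-like and 0.537% in SMC-like cells. These shares also stand beside the list counts that follow.

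Upstream, the receptor chains were near level. Ifngr1, the ligand-binding chain, was at 1.90 in GLPG0187 and 1.88 in vehicle endothelial-like cells and at 1.88 in GLPG0187 and 1.87 in vehicle fibroblast-like cells. Ifngr2, the signalling chain, was at 2.45 in GLPG0187 and 2.66 in vehicle macrophage-like cells and at 1.16 in GLPG0187 and 1.41 in vehicle SMC-like cells. Irf1 was at 2.02 in GLPG0187 and 0.942 in vehicle fibroblast-like cells. Socs3, a feedback inhibitor named after its values were seen, was at 0.950 in GLPG0187 and 1.52 in vehicle endothelial-like cells, and at 0.338 in GLPG0187 and 0.131 in vehicle SMC-like cells. Interferon-gamma itself, Ifng, is not analysed here.

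Genes known to be induced by interferon-gamma outside these families were higher for 21 of 23 measured in endothelial-like, 18 of 25 in macrophage-like, 12 of 20 in fibroblast-like and 3 of 18 in SMC-like cells, where the 3 were Ly6a, H2-Ab1 and Psmb8 (named after their values were seen). B2m, the light chain of class I antigen-presenting molecules, was at 53.7 in GLPG0187 and 23.2 in vehicle endothelial-like cells, a log2 ratio of 1.19, and at 9.43 in GLPG0187 and 7.94 in vehicle SMC-like cells, a log2 ratio of 0.26. H2-Aa, a class II chain, was at 115 in GLPG0187 and 68.3 in vehicle macrophage-like cells. The 1 gene lower was Cxcl9, a T-cell chemokine, in macrophage-like cells, at 0.769 in GLPG0187 and 3.04 in vehicle, a log2 ratio of -2.01. In endothelial-like cells Cxcl9 was at 8.02 in GLPG0187 and 0.317 in vehicle, so the chemokine ran in opposite directions in these classes (it was named after its values were seen).

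The type I interferon list was higher for 14 of 17 measured genes in endothelial-like, 20 of 26 in macrophage-like, 15 of 21 in fibroblast-like and 1 of 11, Ifi27l2a, in SMC-like cells. Isg15, a ubiquitin-like modifier, was at 8.81 in GLPG0187 and 2.07 in vehicle macrophage-like cells, and Rsad2 (viperin) at 7.90 in GLPG0187 and 0.354 in vehicle ones. These counts stand beside those of the interferon-gamma list, and which interferon the cells had met was not tested. The autophagy genes whose products direct the GTPases to membranes had no call in the 4 classes, of 9 to 11 measured: Map1lc3b was at 7.47 in GLPG0187 and 7.50 in vehicle SMC-like cells, and Gabarap at 6.57 in GLPG0187 and 6.13 in vehicle endothelial-like cells.

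Over 14 points, 7 classes or clusters in 2 libraries, genes whose level ran most like the mean of the 10 among 13271 compared included Stat2 (Pearson r 0.97), Irf9 (0.96), Xaf1, H2-T22 and Irgm2 (0.94 each), and Tgtp2, Cmpk2, Psmb9 and Parp10 (0.93 each). The 10 genes had values of 0.81 for Ifi47 to 0.99 for Igtp against that mean, which contains them. The points of a library share its preparation, and no test was made.

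The macrophage marker list summed to means of 0.729 in GLPG0187 and 0.525 in vehicle fibroblast-like cells and 0.814 in GLPG0187 and 0.5 in vehicle endothelial-like cells, against 382 in GLPG0187 and 398 in vehicle macrophage-like cells. All 10 of its markers were detected in each of these classes. Leaving out the cells with at least 2 macrophage markers gave medians of 1.53 in fibroblast-like and 2.65 in endothelial-like cells. In macrophage-like cells 9 GLPG0187 cells (2.63%) and 0 vehicle cells had at least 2 T-cell or NK-cell markers, and without them the median was 2.02. Other marker lists also differed between the libraries, and examples from each class follow. In SMC-like cells the melanocyte list summed to 0.244 in GLPG0187 and 0.695 in vehicle. In fibroblast-like cells the lymphatic list summed to 0.645 in GLPG0187 and 0.414 in vehicle. The T-cell or NK-cell list summed to 2.31 in GLPG0187 and 1.27 in vehicle macrophage-like cells, and the chondrocyte-like list to 0.766 and 1.67. In macrophage-like cells the smooth-muscle list summed to 25.2 in GLPG0187 and 12.9 in vehicle, the cycling list to 3.51 in GLPG0187 and 1.97 in vehicle, the granulocyte list to 0.886 in GLPG0187 and 0.459 in vehicle, and the dendritic list to 0.921 in GLPG0187 and 1.81 in vehicle. In endothelial-like cells the fibroblast list summed to 34.2 in GLPG0187 and 20.5 in vehicle, the lymphatic list to 59.0 in GLPG0187 and 42.5 in vehicle, and the pericyte list to 1.53 in GLPG0187 and 3.34 in vehicle. The part of these markers in the results was not tested. The part of RNA set free from other cells in the low shares of SMC-like cells was not tested.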

How the data were processed

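Each of the 2 libraries was deposited as a table of genes by cells. Per the submitters' processing notes Cell Ranger, Seurat and the mm10 build were used. The deposited values are a score per gene and cell: whole numbers already corrected for depth, with cell totals of 12135 to 16719 in GLPG0187 and 12078 to 16187 in vehicle. They are not molecule counts, so no count model or Poisson interval was used, although one had been planned for molecule counts, and original depth is unknown.

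Cells were clustered with scanpy 1.11.5 (Scrublet doublets removed, 48 GLPG0187 and 16 vehicle cells, 2000 variable genes, 30 components, Leiden resolution 0.5). A cluster took a class name where at least 75% of the class's markers, and no fewer than 3, were raised. This limit was settled after seeing the data. Sums, means, shares above 0 with exact Clopper-Pearson 95% intervals, and log2 ratios with a pseudocount of 1 were computed with numpy 2.4.6 and scipy 1.17.1, and the ratio step was checked on simulated data. Higher and lower mean at least 1.5-fold. Named list genes are the 4 with the highest mean among those measured in each class. The 10 genes and the lists were chosen with earlier results of these data known. Alternatives were the doublet, clustering, scaling, pseudocount, minimum and sex choices. One gene of the signalling list, and the counts of that list, are not reported here.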

Additional observations from a re-analysis of the deposited data

How the results depend on the processing

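No paired analysis was possible because each group holds 1 library. Of 180 recomputed summary values 165 stayed within the tolerance (0.32 on the log2 scale for ratios and medians, 1.5 times for counts), 15 moved and 0 reversed, and of 486 single-gene ratios 412 stayed, 74 moved and 0 reversed. In SMC-like cells the count of higher genes, 1 as reported, was 0 with doublets kept, at resolution 1.0, with a pseudocount of 10, among Xist-only cells or without cells holding at least 2 macrophage markers, was 2 with median-of-ratios scaling, and was 3 with cluster 5 added, where the median was 0.38. Medians in this section are over measured genes, and that of SMC-like cells was 0.08 as reported. The endothelial-like median was 2.19 with a pseudocount of 10, 3.44 among Xist-only cells and 1.70 among Y-only cells. The Xist-only value rests on low vehicle sums. For fibroblast-like cells the medians were 2.09 (Xist-only) and 0.87 (Y-only), and over all cells the Xist-only median was 2.07. The macrophage-like count was 3, with 3 genes measured, among Xist-only cells, and the Y-only median was 2.52. The alternatives that leave out single cells, cells with other types' markers and shared barcodes, and the one that adds cluster 5 to SMC-like cells, were chosen after seeing the data. The original depth is unknown, so no limit for values of 0 is given.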

Other observations

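The smallest named clusters were left out of the comparisons because each held under 50 cells in both libraries: a Schwann-like cluster with 24 GLPG0187 and 42 vehicle cells, and a dendritic-like cluster with 17 GLPG0187 and 8 vehicle cells. Gbp2 averaged 2.46 in GLPG0187 and 0.643 in vehicle Schwann-like cells, and Iigp1 averaged 4.83 in GLPG0187 and 0.119 in vehicle Schwann-like cells. In dendritic-like cells Gbp2 averaged 2.47 in GLPG0187 and 5.38 in vehicle, on 2 GLPG0187 and 3 vehicle cells above 0. Gbp6 was listed at 0 there in both libraries, and every other member also had a lower mean in GLPG0187, on few cells. Gbp5, for example, was at 0.765 in GLPG0187 and 5.0 in vehicle.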
